A study of Mus musculus with 2 samples.

Results

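Far contacts between 4 separate gene clusters of mouse chromosome 1 were read from 1 capture Hi-C map of wild-type embryonic limbs. All coordinates are 1-based on the mm9 build. The clusters were the Tsn-Clasp1 cluster (chr1:120190001-120510000), the Ralb-Dbi cluster (chr1:121360001-122040000), the Steap3-Marco cluster (chr1:122050001-122460000) and the Insig2-Ddx18 cluster (chr1:123190001-123470000). A member was a pair of 10 kb bins that lay 1 Mb or more apart with its ends in 2 different clusters. There were 7035 members among 112575 bin pairs of the map and among 70164 bin pairs at 1 Mb or more. The rule used position and distance and no measured value.

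The series asks which regulatory elements keep the homeobox gene En1 expressed in the growing limb, and the map covers En1 and its surroundings. Both samples were fore- and hindlimbs of E10.5 embryos with the genotype given as wild type, made into single cells with trypsin, fixed in 2% paraformaldehyde, cut with DpnII and enriched with custom SureSelect capture probes. Both titles carry the replicate number 2. Strain, number of embryos and pooling are not given in the labels used here. The deposited map merges both samples, so values are pooled values of 1 map, with no replicate error, and no test between groups was possible. Every interval below is a 95% interval for counting error only: molecules were not tagged individually, and how much embryos vary is not known from this map.

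In Hi-C, chromatin is fixed, cut and religated, and a read pair counts as 1 contact between the 2 positions it joins. Contacts become rarer with distance along the chromosome, so each count is set against the count expected at the same distance. As background, gene-rich stretches of a mammalian chromosome tend to lie with other gene-rich stretches in the nucleus, and gene-poor stretches with gene-poor ones, across many intervening domains. Such contacts are distinct from the contacts of a promoter with an enhancer in its own domain.

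The clusters carry 21 protein-coding transcription starts in the GENCODE M1 annotation. Tsn encodes the nucleic acid-binding protein translin, Mki67ip a nucleolar protein that binds Ki-67, and Clasp1 a protein of microtubule plus ends. Ralb encodes a small GTPase, Epb4.1l5 a FERM-domain protein of the cell cortex, Ptpn4 a tyrosine phosphatase, Sctr the secretin receptor and Dbi an acyl-CoA-binding protein. Steap3 encodes a metalloreductase of iron uptake, C1ql2 a secreted C1q-like protein and Marco a scavenger receptor of macrophages. Insig2 encodes an endoplasmic reticulum protein of sterol sensing, Ccdc93 a protein of endosomal sorting, Htr5b a serotonin receptor and Ddx18 a DEAD-box RNA helicase. Of the 32, 68, 41 and 28 bins of the clusters, in order of position, 28, 57, 17 and 16 overlapped a protein-coding gene.

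In each cluster, the start bin with the highest observed/expected value summed over the other clusters was that of Clasp1, of Dbi and 3110009E18Rik (which share a bin), of Steap3 and of Ccdc93. The bases just upstream of those starts are shown because they are the promoter sequence inside the highest start bin of each cluster. Each bin is 10 kb long, so the map does not place a contact on these bases. They were read from the NCBIM37 genome, which is the same assembly as mm9, 5′ to 3′ on the strand of the gene, with CG dinucleotides in capitals.
Clasp1 (chr1:120285385-120285634, plus strand): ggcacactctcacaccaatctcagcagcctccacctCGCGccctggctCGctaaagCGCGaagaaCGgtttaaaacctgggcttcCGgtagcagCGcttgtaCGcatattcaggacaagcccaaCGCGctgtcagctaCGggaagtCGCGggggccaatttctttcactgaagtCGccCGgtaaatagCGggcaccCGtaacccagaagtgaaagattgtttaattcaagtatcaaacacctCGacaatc
3110009E18Rik (chr1:122017656-122017763, plus strand): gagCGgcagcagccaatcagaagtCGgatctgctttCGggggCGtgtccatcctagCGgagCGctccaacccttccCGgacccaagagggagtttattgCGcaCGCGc
Steap3 (chr1:122169283-122169532, minus strand): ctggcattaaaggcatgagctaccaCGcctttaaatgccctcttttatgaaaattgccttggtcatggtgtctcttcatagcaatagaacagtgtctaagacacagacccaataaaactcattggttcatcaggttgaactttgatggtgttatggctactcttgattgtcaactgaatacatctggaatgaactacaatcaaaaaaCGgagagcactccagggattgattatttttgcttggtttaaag
Ccdc93 (chr1:123327376-123327625, plus strand): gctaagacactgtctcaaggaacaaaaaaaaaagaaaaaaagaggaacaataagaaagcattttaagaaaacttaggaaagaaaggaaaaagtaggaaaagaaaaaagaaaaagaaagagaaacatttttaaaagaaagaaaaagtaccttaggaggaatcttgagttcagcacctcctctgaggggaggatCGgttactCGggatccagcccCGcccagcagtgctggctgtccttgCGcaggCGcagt
The second sequence is the whole stretch of 108 bases between the starts of Dbi and 3110009E18Rik, which point away from each other. The Clasp1 window held 19 CG dinucleotides, the Ccdc93 window 5 and the Steap3 window 2. Over 1238 protein-coding starts of chromosome 1, windows of 250 bases had a median of 9, and 94.3% held at least 1. The highest start bins of the 4 clusters thus held promoter windows from CG-rich to CG-poor.

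The map held 6484654 read pairs, with a median of 22376 per bin, and members held 82045 of them. Members were 10.0% of the bin pairs at 1 Mb or more and held 23.2% of the read pairs there. Of the members, 89 (1.27%) had no read pair, against 23.9% of all bin pairs at that range. A bin was called low when its total was under 25% of the median. Of 56 low bins, 1 lay in a cluster, the bin chr1:121640001-121650000 inside Ptpn4, with 2729 read pairs. The best covered cluster bin had 51135.

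Contacts between clusters were above expected in 5 of 6 cluster pairs. The expected count was the mean KR value at the same distance, corrected for the balancing factors of both bins, and KR is the balanced contact value. Over all members, 82045 read pairs were counted against 53443 expected, so that observed/expected was 1.54 (1.52 to 1.55). The Steap3-Marco cluster with the Insig2-Ddx18 cluster, which lie on either side of En1, gave 20432 read pairs where 10652 were expected, a value of 1.92 (1.89 to 1.94). Single bin pairs there had a median of 24 read pairs, from 3 to 74, and 758 of 797 lay above their expected count. This was the highest of the 6 values under the main setting, though its interval overlapped that of the next.

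The cluster pair farthest apart had nearly as high a value. The Tsn-Clasp1 and Insig2-Ddx18 clusters lie 2690 to 3270 kb apart and had 5288 read pairs where 2816 were expected, a value of 1.88 (1.83 to 1.93). Their bin pairs had a median of 5 read pairs, from 0 to 23, and their mean KR value was 5.59 where 2.89 was expected. For comparison, the mean KR value over all bin pairs was 13.8 at 1000 kb and 2.83 at 3000 kb. Of the 896 bin pairs, 723 (80.7%) lay above their expected count. With an expected count from distance alone the value was 2.82 and that of Steap3-Marco with Insig2-Ddx18 was 2.18. The farthest pair was also the higher of both without low bins in the expected count, at 1.99 against 1.79, and with 25 kb bins, at 2.00 against 1.93.

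The 3 remaining enriched cluster pairs had values between 1.34 and 1.48. Tsn-Clasp1 with Ralb-Dbi, at 1000 to 1840 kb, had 26815 read pairs where 18119 were expected, a value of 1.48 (1.46 to 1.5). Ralb-Dbi with Insig2-Ddx18, at 1160 to 2100 kb, had 18994 where 13619 were expected, a value of 1.39 (1.37 to 1.41). Tsn-Clasp1 with Steap3-Marco, at 1550 to 2260 kb, had 9655 where 7192 were expected, a value of 1.34 (1.32 to 1.37). Their median counts per bin pair were 11, 9 and 7 read pairs in that order. Observed/expected values thus did not follow distance: the 2 highest belonged to a pair at 1000 to 1410 kb and to the pair farthest apart, whose order turned between settings.

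The exception was Ralb-Dbi with Steap3-Marco, neighbouring clusters that meet within the gene 3110009E18Rik. At 1 Mb or more they were joined by just 55 bin pairs, 1.97% of all pairs between them, which link the Ralb end of one to the Marco end of the other. These had 861 read pairs where 1045 were expected, a value of 0.824 (0.770 to 0.881). Nearer pairs of these clusters fall outside the rule. With an expected count from distance alone, without the balancing factors, this value turned to 1.12, while the other 5 stayed above 1.

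**Figure D1:**
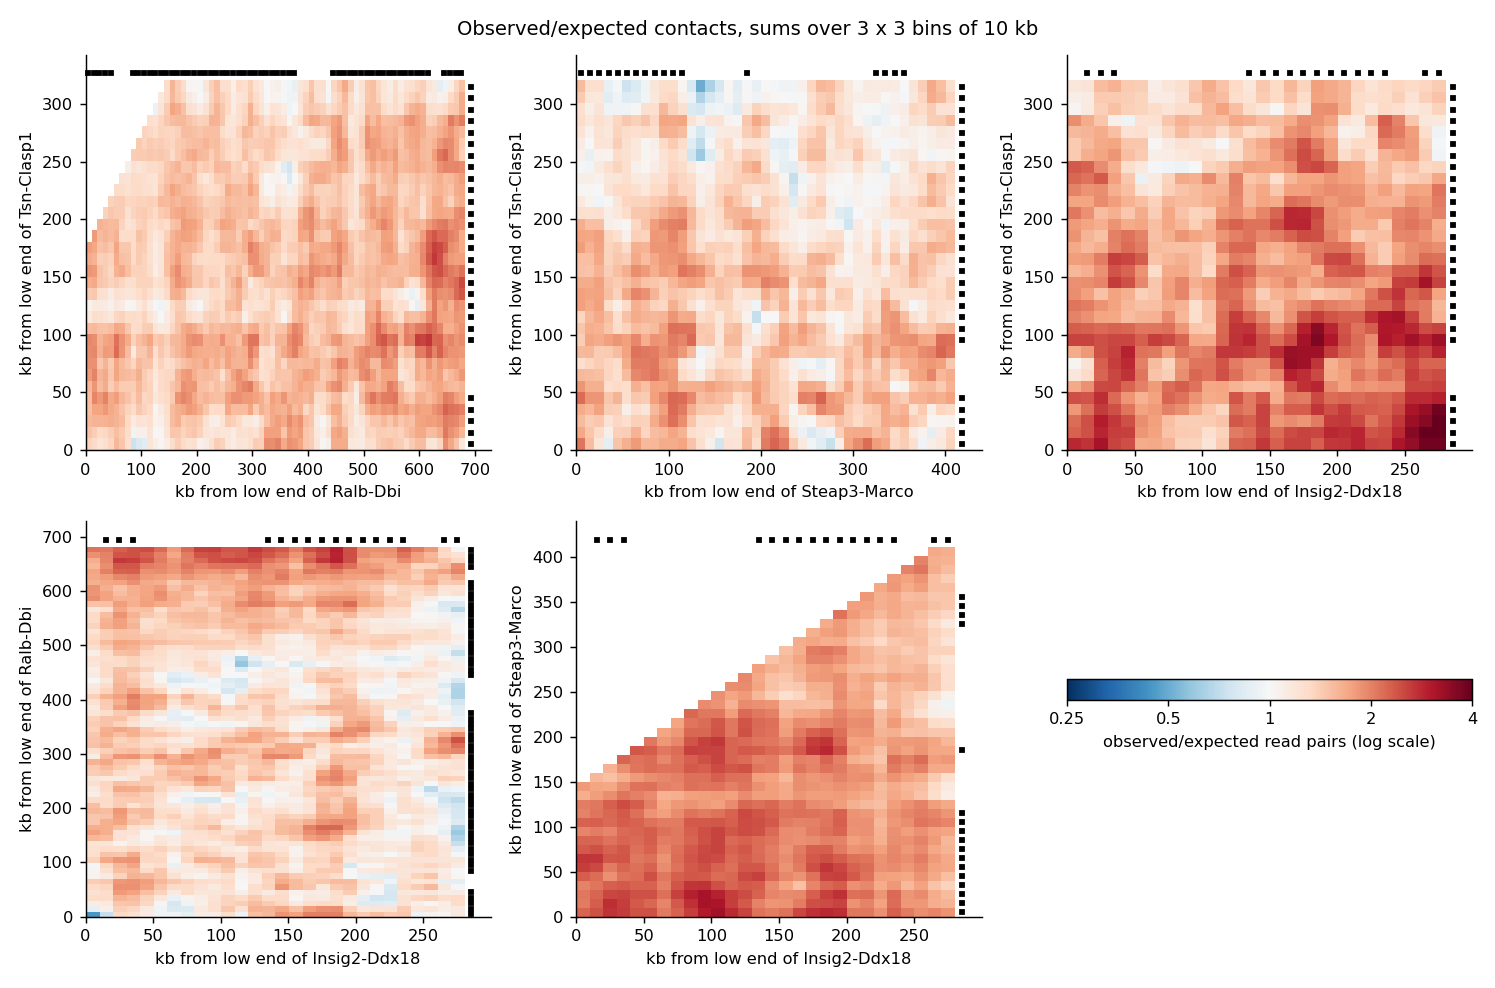
Observed/expected read pairs between bins of 5 cluster pairs, each cell summed over 3 x 3 bins of 10 kb, with distance in kb from the low-coordinate end of each cluster on both axes and the colour on a log scale; black squares mark bins that overlap a protein-coding gene, and white corners lie under 1 Mb. Cells are mostly above 1, and values are higher toward the low ends of Tsn-Clasp1 and Steap3-Marco and at the high end of Ralb-Dbi against Insig2-Ddx18.

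Members made up most of the single bin pairs that were called high at this range, and few of those called low. A bin pair was called high when the lower exact Poisson bound of observed/expected was above 1.5, and low when the upper bound was under 1/1.5, among pairs with an expected count of at least 2. Of all 48588 such pairs at 1 Mb or more, 889 were high, which is 1.83%, and 423 were low, which is 0.871%. Of the 7035 members, 6695 had an expected count of at least 2, and 540 of these (8.07%) were high and 5 (0.0747%) were low. Members were 13.8% of the pairs examined and 60.7% of those called high. The share was 28.5% (227 of 797) for Steap3-Marco with Insig2-Ddx18 and 11.4% (80 of 702) for Tsn-Clasp1 with Insig2-Ddx18. It was 5.48% for Tsn-Clasp1 with Ralb-Dbi, 4.34% for Ralb-Dbi with Insig2-Ddx18, 3.28% for Tsn-Clasp1 with Steap3-Marco and 0 of 55 for Ralb-Dbi with Steap3-Marco. Median read pairs per bin pair differed as well, from 5 to 24 over these cluster pairs, and the part of depth in these shares was not tested. With the further demand of 1.5 times the surrounding ring of bins, 324 of the 540 remained, and with an expected count from distance alone 1077 were high.

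Summed over the 6 cluster pairs, gene overlap of the bins made little difference inside the clusters, while single cluster pairs depended on how the expected count was made. Relative to the level of their own cluster pair, members with both ends on protein-coding genes stood at 1.01 (0.997 to 1.02), those with 1 such end at 0.994 (0.983 to 1.00) and those with both ends gene-free at 0.994 (0.970 to 1.02). The ratio of the first to the last was 1.01 (0.987 to 1.04), and 1.03 (1.00 to 1.06) with an expected count from distance alone. For Tsn-Clasp1 with Insig2-Ddx18, 2712 read pairs on 448 gene-to-gene bin pairs gave 1.96 (1.89 to 2.03), and 246 read pairs on 48 gene-free bin pairs gave 2.02 (1.78 to 2.29). For Steap3-Marco with Insig2-Ddx18 the values were 1.99 (1.94 to 2.05) on 231 and 1.91 (1.85 to 1.97) on 138 bin pairs. The largest gene-free stretches lie in that pair: 24 of 41 bins of Steap3-Marco and 12 of 28 of Insig2-Ddx18 overlap no protein-coding gene.

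The direction of the differences was not the same in all cluster pairs. The ratio of gene-to-gene over gene-free pairs was 1.07 (1.01 to 1.13) for Ralb-Dbi with Insig2-Ddx18 and 1.04 (1.00 to 1.09) for Steap3-Marco with Insig2-Ddx18. The former turned to 0.902 with an expected count from distance alone, and the latter to 0.974 with 25 kb bins and to 0.991 without the bins that had most read pairs. In the other 4 cluster pairs the interval included 1, with ratios from 0.913 (0.831 to 1.00) for Tsn-Clasp1 with Ralb-Dbi to 1.14 (0.929 to 1.40) for Ralb-Dbi with Steap3-Marco. With an expected count from distance alone, the intervals of these 4 lay above 1. The ratios were then 1.15 (1.05 to 1.27) for Tsn-Clasp1 with Ralb-Dbi, 1.36 (1.24 to 1.5) with Steap3-Marco and 1.17 (1.02 to 1.34) with Insig2-Ddx18, and 1.46 (1.19 to 1.79) for Ralb-Dbi with Steap3-Marco. For Tsn-Clasp1 with Ralb-Dbi, other settings put the interval under 1. The ratio was 0.899 (0.842 to 0.961) with 5 kb bins and 0.894 (0.814 to 0.985) without low bins in the expected count. With the expected count smoothed over distances it was 0.905 (0.824 to 0.997). Tsn-Clasp1 has 4 gene-free bins, so its gene-free classes rest on few bins.

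**Figure D2:**
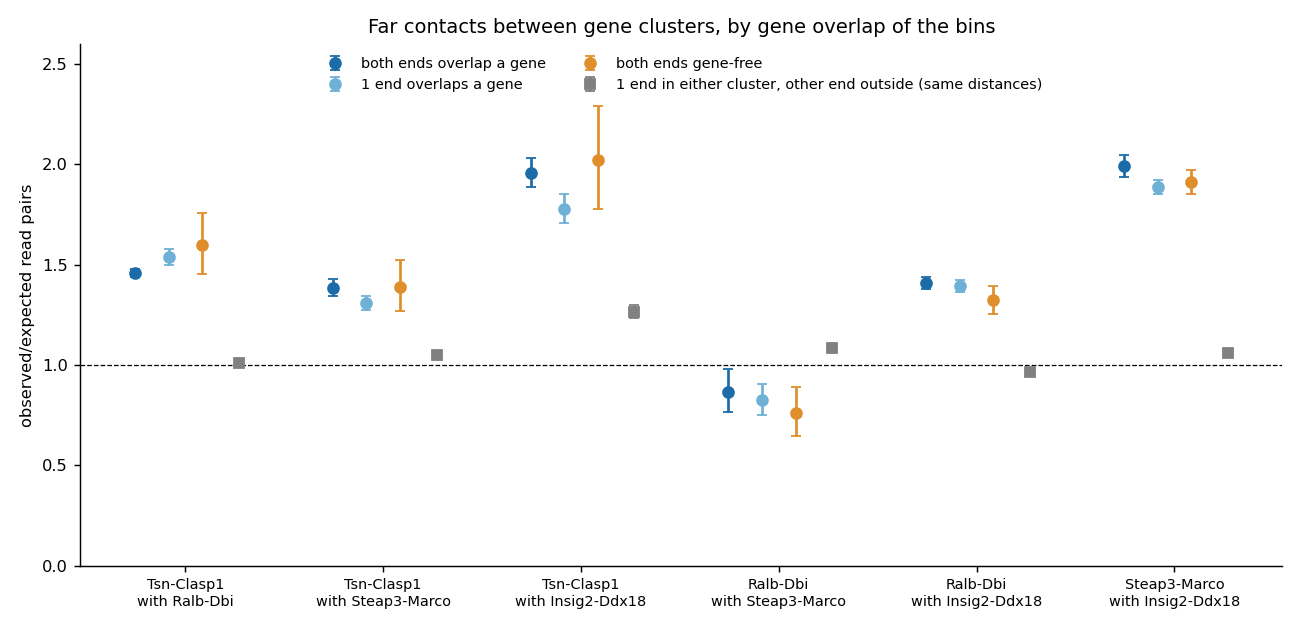
Observed/expected read pairs of each cluster pair by gene overlap of the 2 bins (circles), beside bin pairs of the same distances with 1 end in either cluster and the other outside all 4 (grey squares); bars are exact Poisson 95% intervals. The 3 circles of a cluster pair lie close together, and they lie above the square in 5 cluster pairs and below it in Ralb-Dbi with Steap3-Marco.

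Gene-free bins inside a cluster differed from gene-free bins outside. With low bins left out, 25795 bin pairs at 1 Mb or more had 1 end in a cluster and gave 1.00 (0.997 to 1.01), and 18609 had no end in a cluster and gave 0.825 (0.819 to 0.830). Members as a whole were 1.53 times (1.52 to 1.55) the former. Gene-free cluster bins gave 0.991 (0.982 to 1.00) with gene-free bins outside the clusters and 1.18 (1.16 to 1.2) with gene-overlapping bins outside, such as those of Gli2 and En1. Gene-overlapping cluster bins gave 0.938 (0.932 to 0.945) and 1.25 (1.24 to 1.27) with the same partners. Gene-free bins with both ends outside the clusters gave 0.793 (0.787 to 0.799), where gene-free members gave 1.63 (1.60 to 1.67). The spans of distance of these groups were not matched. The expected count averages over members as well, so high members by construction lower the values of other pairs at their distances. Values of the other groups without members in the expected count are not given here. By cluster pair, gene-free members ran from 0.761 for Ralb-Dbi with Steap3-Marco to 2.02 for Tsn-Clasp1 with Insig2-Ddx18. Steap3-Marco with Insig2-Ddx18 held 3916 of their 6691 read pairs.

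At matched distances, each enriched cluster pair, over all gene classes, stood above bin pairs with 1 end in its clusters. Set against bin pairs with 1 end in either cluster and the other outside, over the same distances, Steap3-Marco with Insig2-Ddx18 was 1.81 times (1.78 to 1.84) as high. The ratio was 1.48 (1.43 to 1.54) for Tsn-Clasp1 with Insig2-Ddx18, where the outside pairs themselves stood at 1.27 (1.23 to 1.3). It was 1.47 (1.45 to 1.49) for Tsn-Clasp1 with Ralb-Dbi, 1.44 (1.42 to 1.47) for Ralb-Dbi with Insig2-Ddx18 and 1.28 (1.25 to 1.31) for Tsn-Clasp1 with Steap3-Marco. For Ralb-Dbi with Steap3-Marco it was 0.759 (0.709 to 0.813). The sides of 1 held in the other settings, but sizes moved. Tsn-Clasp1 with Insig2-Ddx18 fell to 1.26 with bins at or above the median total alone. Tsn-Clasp1 with Ralb-Dbi ran from 1.31 with an expected count from distance alone to 1.93 at 1.5 Mb or more. Bin pairs with no end in a cluster gave 0.643 to 0.872 over the distances of 5 cluster pairs and 1.01 (1.00 to 1.03) over those of Tsn-Clasp1 with Steap3-Marco.

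The enrichment dropped at most cluster edges. For each cluster as anchor, contacts with another cluster were compared with contacts with the 200 kb on either side of it, leaving out low bins and bins of other clusters. Of 17 such flanks, 15 were lower than the cluster they border, with intervals that did not overlap, and 2 were higher. Flank and cluster did not always use the same anchor bins. Seen from Tsn-Clasp1, the flank below Ralb-Dbi had 153 bin pairs at 1 Mb or more against 2039 inside. The flank below Tsn-Clasp1 kept 5 bins. The largest drop lay across the upper edge of Insig2-Ddx18, beyond Ddx18. Across it, observed/expected fell from 1.88 to 0.946 (0.896 to 0.998) seen from Tsn-Clasp1, from 1.39 to 0.720 (0.698 to 0.743) seen from Ralb-Dbi and from 1.92 to 0.973 (0.95 to 0.997) seen from Steap3-Marco.

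Other edges were weaker or ran the other way. Above Tsn-Clasp1, where the flank starts with Tcfcp2l1, a gene for a transcription factor of the grainyhead-like family, Ralb-Dbi gave 1.43 (1.41 to 1.46), close to the 1.48 inside. Below Insig2-Ddx18, Steap3-Marco gave 2.3 (2.22 to 2.37) with the flank, above the 1.92 inside. That flank overlaps no protein-coding gene and was reached at 1 Mb or more by 14 of its bins in 105 bin pairs. Those pairs use the low end of Steap3-Marco alone, while the 1.92 covers nearly the whole cluster. The windows from 122050001 and 122150001 there gave 2.16 and 1.99 with Insig2-Ddx18 itself. The other flank above its cluster lay below Ralb-Dbi seen from Steap3-Marco, at 0.95 (0.927 to 0.974) against 0.824. Above Steap3-Marco, where En1 lies, Ralb-Dbi gave 0.596 (0.578 to 0.615) and Tsn-Clasp1 gave 1.08 (1.05 to 1.12).

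**Figure D3:**
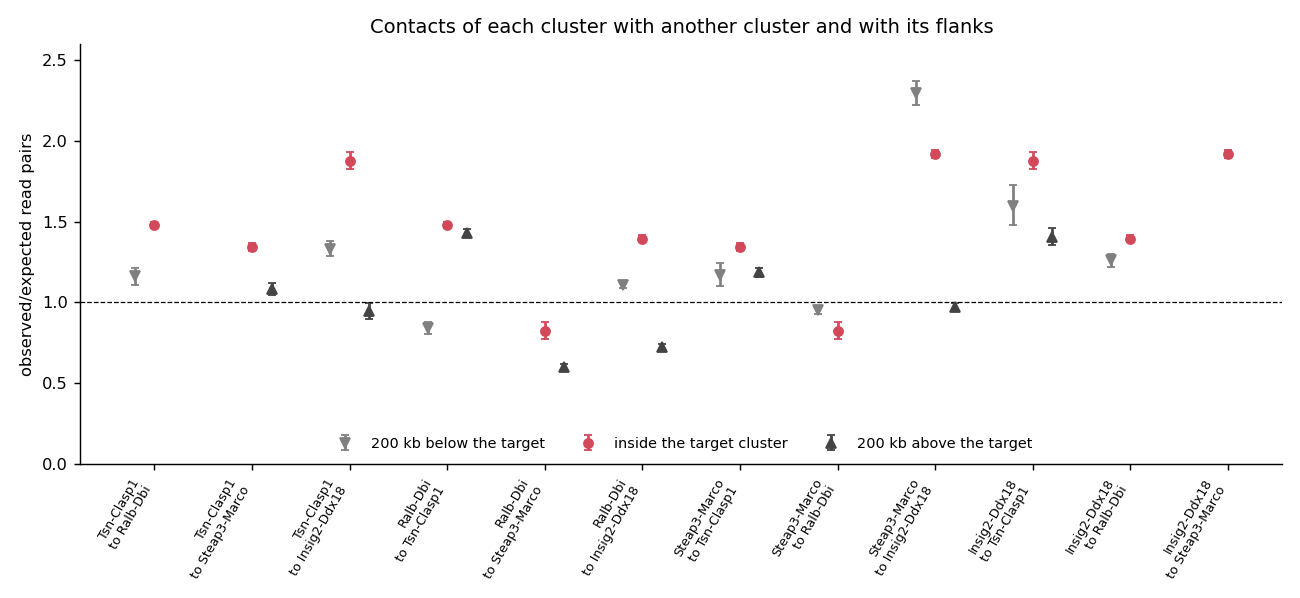
Observed/expected read pairs of each cluster (first name) with another cluster (second name, red) and with the 200 kb below (grey) and above it (black), at 1 Mb or more, with exact Poisson 95% intervals; a flank is missing where under 50 bin pairs were left. The red point is the highest in each column except Steap3-Marco to Insig2-Ddx18, where the flank below stands at 2.3, and Steap3-Marco to Ralb-Dbi, where all values are under 1.

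Within the clusters, enrichment was spread over nearly all bins and not carried by a few. All 32 bins of Tsn-Clasp1 were above 1 with each of the other 3 clusters. With Insig2-Ddx18 they ran from 1.2 to 2.69 with a median of 1.84, and for 31 the lower bound was above 1. All 68 bins of Ralb-Dbi were above 1 with Tsn-Clasp1, from 1.07 to 2.05 with a median of 1.52. Against Insig2-Ddx18, 65 of the 68 were above 1, and the lowest, in Gm101, stood at 0.931 (0.801 to 1.08). All 28 bins of Insig2-Ddx18 were above 1 with Tsn-Clasp1 and with Steap3-Marco, with medians of 1.94 and 1.99. Leaving out the bins with most read pairs on each side moved none of the 5 enriched values by more than their counting interval.

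Enrichment varied with position inside a cluster, and the part of gene overlap in this was not tested. With Insig2-Ddx18, the median bin value in Steap3-Marco was 2.03 for gene-overlapping and 1.74 for gene-free bins. In Tsn-Clasp1 the same medians were 1.83 and 2.21. In windows of 100 kb from its low end, Tsn-Clasp1 gave 2.28 (2.17 to 2.39), 1.95 (1.86 to 2.04) and 1.61 (1.53 to 1.69) with Insig2-Ddx18, and 1.52, 1.42 and 1.21 with Steap3-Marco. The first window holds Tsn, Mki67ip and the start of Clasp1, and the others lie in the body of Clasp1. Bin coverage moved the opposite way, with median totals of 16876, 22686 and 29888.5 read pairs in these windows. With bins at or above the median total of the map alone, a setting chosen after the data were seen, Tsn-Clasp1 with Insig2-Ddx18 gave 1.66 (1.59 to 1.73) in place of 1.88.

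Ralb-Dbi rose at its high end. Against Insig2-Ddx18, its 6 windows of 100 kb up to 121960000 gave 1.16 to 1.44, and the last 80 kb, with Tmem37, Dbi and the start of 3110009E18Rik, gave 1.89 (1.83 to 1.95). The same 80 kb gave 1.76 (1.69 to 1.83) with Tsn-Clasp1, where the other windows gave 1.39 to 1.59. Its highest bin with Insig2-Ddx18, chr1:122020001-122030000 in 3110009E18Rik, stood at 2.48 from 619 read pairs (2.29 to 2.69). Median totals were 23836 read pairs per bin in this stretch and 13870 to 28087 in the other windows. The part of coverage in this rise was not tested.

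Windows of Steap3-Marco and Insig2-Ddx18 had their highest values with each other at the low ends, though on unlike sets of partner bins. Windows of Steap3-Marco gave 2.16 (2.11 to 2.21) from 122050001, 1.99 (1.95 to 2.04) from 122150001, 1.68 (1.63 to 1.73) from 122250001 and 1.60 (1.53 to 1.67) from 122350001. The first of these holds the end of 3110009E18Rik and part of Steap3, and the last holds Marco. Windows of Insig2-Ddx18 gave 2.20 (2.14 to 2.25), 2.00 (1.96 to 2.05) and 1.66 (1.62 to 1.7), with Insig2 in the first and Htr5b and Ddx18 in the last. The distance rule left 280, 265, 175 and 75 bin pairs for the Steap3-Marco windows, and 195, 295 and 307 for those of Insig2-Ddx18. The Marco window thus met only the high part of Insig2-Ddx18, and the Insig2 window only the low part of Steap3-Marco. The part of these unlike partners in the differences between windows was not tested. With Tsn-Clasp1 the order of the Insig2-Ddx18 windows was turned, at 1.73 (1.65 to 1.81), 1.94 (1.85 to 2.03) and 2.00 (1.90 to 2.10).

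**Figure D4:**
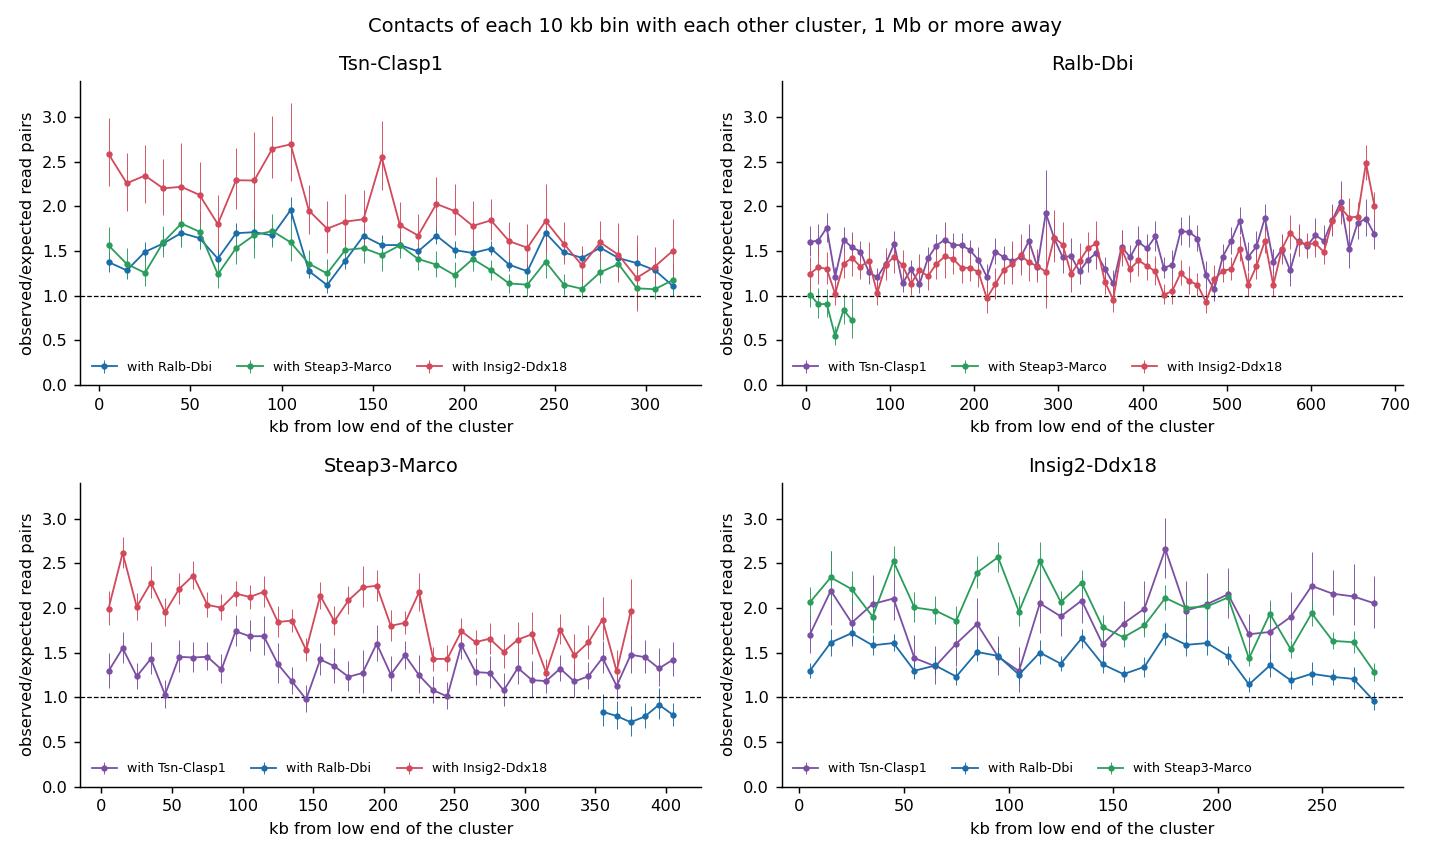
Observed/expected read pairs of each 10 kb bin of a cluster with each other cluster, by distance in kb from the low end of its cluster, with exact Poisson 95% intervals; bins with under 5 far enough pairs are left out. Nearly all points lie above 1 except those between Ralb-Dbi and Steap3-Marco, and Tsn-Clasp1 falls along its length with Insig2-Ddx18 while Ralb-Dbi rises at its high end.

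Bins of transcription starts, like most bins of the clusters, were enriched with nearly every other cluster. The 21 starts lie in 20 bins, which gave 51 values with other clusters, and for 48 the lower bound was above 1. For the other 3 the interval included 1. These were Ralb with Steap3-Marco, at 0.841 (0.688 to 1.02), Marco with Ralb-Dbi, at 0.840 (0.675 to 1.03), and Ddx18 with Ralb-Dbi, at 0.954 (0.861 to 1.05). Over all bins, with or without a start, the lower bound was above 1 for 67 of 68 of Ralb-Dbi with Tsn-Clasp1. It was so for 38 of 38 of Steap3-Marco and 57 of 68 of Ralb-Dbi with Insig2-Ddx18. Lower shares were 34 of 41 of Steap3-Marco with Tsn-Clasp1 and 0 of 6 of Ralb-Dbi with Steap3-Marco. Enrichment was thus not particular to starts.

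Among the starts of Tsn-Clasp1, Clasp1 was highest with Insig2-Ddx18. Its bin had 225 read pairs with the 28 bins of that cluster where 85.1 were expected, a value of 2.65 (2.31 to 3.01). The lowest there was the small gene 2900060B14Rik inside Clasp1, with 212 read pairs and 1.79 (1.56 to 2.05). With Steap3-Marco the range was 1.25 (1.10 to 1.42) for Mki67ip to 1.72 (1.55 to 1.91) for Clasp1, and with Ralb-Dbi it was 1.28 (1.19 to 1.38) for Tsn to 1.67 (1.57 to 1.79) for Clasp1. Tsn was thus low with Ralb-Dbi and at 2.26 (1.95 to 2.6) with Insig2-Ddx18.

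In Ralb-Dbi, the shared start bin of Dbi and 3110009E18Rik had 576 read pairs with Insig2-Ddx18 and the highest value, 1.88 (1.73 to 2.04). Tmem177, which encodes a mitochondrial membrane protein, was lowest with 324 read pairs and 1.25 (1.12 to 1.40). With Tsn-Clasp1, Sctr was highest, with 599 read pairs and 1.87 (1.72 to 2.03), and Ptpn4 lowest, with 296 read pairs and 1.55 (1.38 to 1.73). The intervals of Sctr and Ptpn4 overlapped slightly, and those of Dbi and Tmem177 did not.

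In Steap3-Marco, the C1ql2 start bin had 378 read pairs with Insig2-Ddx18 and a value of 2.23 (2.01 to 2.47), Steap3 had 611 and 2.18 (2.01 to 2.36), and Marco had 239 and 1.87 (1.64 to 2.12). In that order, 24, 28 and 7 bins of Insig2-Ddx18 were far enough away to be counted. With Tsn-Clasp1, C1ql2 was lowest at 1.27 (1.05 to 1.53), from 111 read pairs, and Steap3 highest at 1.68 (1.48 to 1.91), and the intervals overlapped in both comparisons. In Insig2-Ddx18, Ccdc93 was highest with each of the other clusters, at 2.28 (2.14 to 2.43) with Steap3-Marco, 1.66 (1.56 to 1.77) with Ralb-Dbi and 2.08 (1.83 to 2.36) with Tsn-Clasp1. Ddx18 was lowest with the first of these, at 1.28 (1.18 to 1.38), and with the next, yet stood at 2.05 (1.77 to 2.36) with Tsn-Clasp1. Htr5b was lowest there, at 1.90 (1.65 to 2.18), with intervals that overlapped for all 4 starts. The values with Steap3-Marco rest on unlike sets of its bins: 18 for Insig2, 28 for Ccdc93, 38 for Htr5b and 41 for Ddx18.

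**Figure D5:**
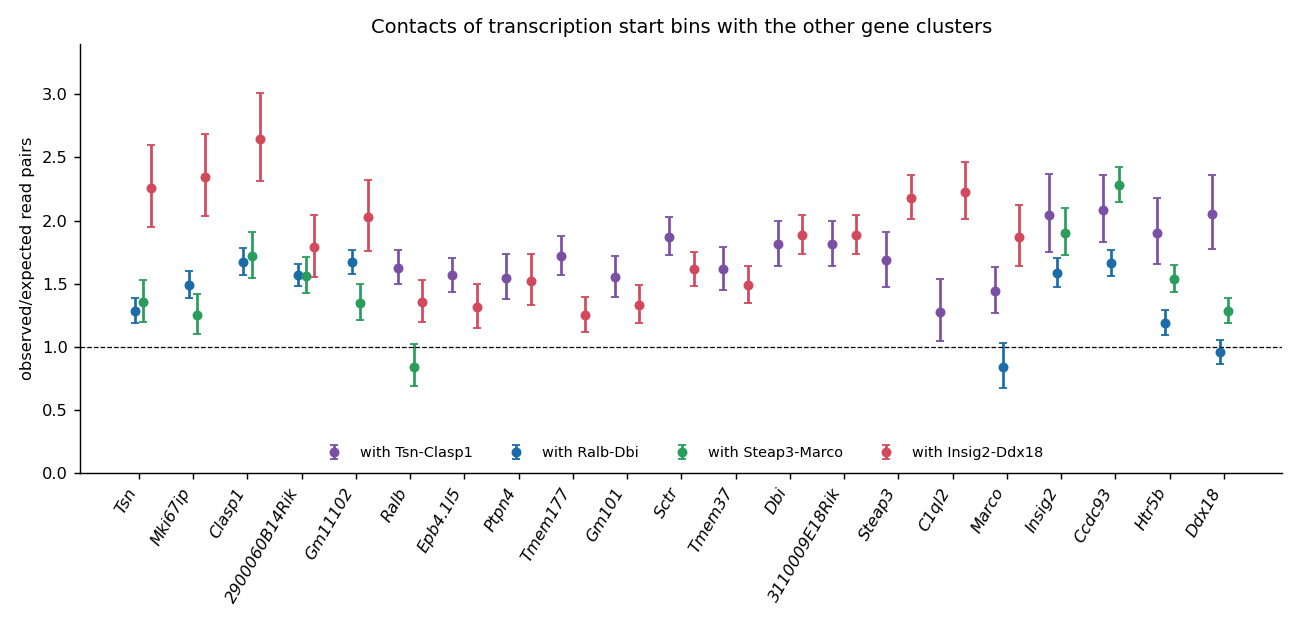
Observed/expected read pairs of the bin of each protein-coding transcription start with each other cluster at 1 Mb or more, with exact Poisson 95% intervals and genes in order of position. Dbi and 3110009E18Rik share a bin and so a value; Clasp1 with Insig2-Ddx18 stands highest at 2.65, and the 3 points under 1 belong to Ralb, Marco and Ddx18.

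Pairs of start bins stood somewhat above pairs without a start. The 117 members with a start at both ends had 1568 read pairs where 895 were expected, a value of 1.75 (1.67 to 1.84), and 101 of them were above 1. Relative to their own cluster pair, they were 1.18 times (1.12 to 1.24) as high as members with no start. The ratio was 1.41 (1.2 to 1.65) for Tsn-Clasp1 with Insig2-Ddx18, where 170 read pairs on 20 start-to-start bin pairs gave 2.54 (2.18 to 2.96) against 1.8 (1.74 to 1.86) without a start. It was 1.27 (1.18 to 1.37) for Tsn-Clasp1 with Ralb-Dbi, and its interval included 1 in the other 4 cluster pairs. The intervals take bin pairs as independent, although the 117 share 20 bins. Start bins had more CG dinucleotides than other bins of their cluster, with medians of 128 to 144 against 81 to 103.5, and their part in the result was not tested.

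Some start-to-start pairs could be read singly. The call for high pairs was met by 18 of the 117 (15.4%), against 8.07% of all members and 1.83% of all far bin pairs, and 9 of the 18 joined Tsn-Clasp1 to Insig2-Ddx18. Mki67ip with Ddx18, 3250 kb apart, had 12 read pairs where 2.29 were expected, a value of 5.24 (2.71 to 9.15). Tsn with Ddx18 had 11 where 2.61 were expected, a value of 4.22 (2.11 to 7.55), and Tsn with Ccdc93 had 13 where 3.36 were expected, a value of 3.87 (2.06 to 6.61). Tsn with Ptpn4, 1530 kb apart, had 19 where 5.44 were expected, a value of 3.50 (2.10 to 5.46). Nearer by, Steap3 with Ccdc93, 1160 kb apart, had 36 where 12.1 were expected, a value of 2.96 (2.08 to 4.1). These 5 had the highest lower bounds of the 117 and so are the upper end of a distribution.

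Over gene bodies, 127 pairs of genes from different clusters had at least 1 member, 121 were above 1 and for 104 the lower bound was above 1. The gene 3110009E18Rik runs on into Steap3-Marco, and only its part in Ralb-Dbi was counted. Tsn and Mki67ip with Ddx18 were the highest by lower bound. The 4 bin pairs of Tsn with Ddx18 had 32 read pairs in all where 8.43 were expected, a value of 3.80. Mki67ip with Ddx18 had 49 read pairs on 6 bin pairs where 12.8 were expected, a value of 3.81. All 10 of these bin pairs were above 1, from 1.75 to 6.30, although for 2 of them the interval included 1. Against this, Clasp1 with Ddx18 had 233 read pairs on 46 bin pairs and a value of 1.76, and Epb4.1l5 with Ddx18 had 91 on 22 and 0.878.

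Gene pairs with many read pairs could be read more closely. Steap3 with Ccdc93 had 2152 read pairs on 81 bin pairs where 1021 were expected, a value of 2.11, and Clasp1 with Ccdc93 had 1367 on 207 where 730.9 were expected, a value of 1.87. The part of 3110009E18Rik in Ralb-Dbi had 589 read pairs with Ccdc93 on 27 bin pairs and a value of 2.16. The lowest value, 0.221 for Tsn with C1ql2, rested on 1 read pair where 4.53 were expected. The median over gene pairs was 2.14 for Tsn-Clasp1 with Insig2-Ddx18, 1.7 for Steap3-Marco with Insig2-Ddx18, 1.63 for Tsn-Clasp1 with Ralb-Dbi, 1.52 for Tsn-Clasp1 with Steap3-Marco and 1.37 for Ralb-Dbi with Insig2-Ddx18.

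In each cluster pair, the strongest separate bin pairs by lower bound were picked, 12 in all. They are described here as picked for their values. For Tsn-Clasp1 with Insig2-Ddx18, the bin chr1:120340001-120350000 in Clasp1 and the gene-free bin chr1:123230001-123240000, 1 kb from Insig2, had 18 read pairs where 2.68 were expected, a value of 6.72 (3.98 to 10.6). Its 8 neighbouring bin pairs ran from 0.441 to 3.24. The other pick joined Mki67ip and Ddx18, at chr1:120210001-120220000 and chr1:123450001-123460000, with 14 read pairs and 6.30 (3.45 to 10.6), and its 8 neighbours ran from 2.28 to 5.24. All neighbours of the second were thus above 2, and some of the first were under 1.

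For Steap3-Marco with Insig2-Ddx18, the bin chr1:122070001-122080000 in 3110009E18Rik and the gene-free bin chr1:123270001-123280000 had 53 read pairs where 13.2 were expected, a value of 4.02 (3.01 to 5.26). Its neighbours ran from 1.64 to 3.47. The gene-free bin chr1:122240001-122250000, 1 kb from C1ql2, and chr1:123370001-123380000 in Ccdc93 had 42 read pairs and 4.38 (3.15 to 5.91). For Ralb-Dbi with Insig2-Ddx18, both picks started from the bin chr1:122020001-122030000 in 3110009E18Rik. It had 37 read pairs with the start bin of Insig2, a value of 4.34 (3.06 to 5.98), and 32 with a bin of Ccdc93, a value of 4.16 (2.85 to 5.88).

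For Tsn-Clasp1 with Ralb-Dbi, the picks joined Clasp1 to Sctr, with 19 read pairs and 4.48 (2.70 to 7.00), and a gene-free bin 16 kb from Clasp1 to Gm101, with 27 and 3.62 (2.39 to 5.27). For Tsn-Clasp1 with Steap3-Marco they joined Mki67ip to a gene-free bin 61 kb from C1ql2, with 15 read pairs and 5.04 (2.82 to 8.31), and Clasp1 to a gene-free bin 1 kb from Steap3, with 13 and 4.54 (2.42 to 7.76). Both picks of Ralb-Dbi with Steap3-Marco lay in Ralb and had intervals that included 1, the higher at 1.41 (0.803 to 2.28). With 25 kb bins, 9 of the 12 values fell below their counting interval, and outside Ralb-Dbi with Steap3-Marco the values were 1.71 to 4.61.

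The clusters shared some sequence features that the rule did not use. Median GC content per bin was 45.6% in the clusters and 43.7% in bins outside that were not low, and the median number of CG dinucleotides per bin was 96 against 75. Inside the clusters, gene-free bins had 46.1% GC and 94 CG dinucleotides, close to the 45.0% and 97 of gene-overlapping bins, whereas gene-free bins outside had 42.9% and 70. The 34 gene-overlapping bins outside that were not low stood above the clusters, at 49.4% and 110.5. DpnII sites (GATC) did not set the clusters apart, at medians of 24 and 25 per bin. The part of base composition in the contacts was not tested.

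Across the bins of a cluster, Spearman's rho of the observed/expected value with GC content ran from −0.349 to 0.297 over the cluster pairs with at least 10 bins, with 28 to 68 bins each, and bins of a cluster share their partner bins. With bin total it ran from −0.420 to 0.105, and the lowest was Tsn-Clasp1 with Steap3-Marco. The rho with bin total was below 0 in 8 of the 10 profiles and 0.00687 and 0.105 in the others, and the part of coverage in the bin values was not tested beyond the setting with well covered bins.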

How the data were processed

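Chromatin contacts were measured by capture Hi-C in 2 wild-type samples of E10.5 mouse limbs, merged by the authors into 1 map. The authors deposited raw counts of read pairs per bin pair, without normalization, and a signal of balanced contacts. The file names call it KR, taken here to mean Knight-Ruiz balancing. HiCUP and a mapping quality minimum of 30 are named in the file names, and Bowtie2 2.3.4.1, Juicer 1.7.6, SAMtools and the mm9 build are named in the submitters' processing notes, without their roles.

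Tables at 10 kb were the main data. Unlisted bin pairs counted as 0. The 1 bin without KR values was left out. Balancing factors were recovered from KR over raw counts. The expected count was the mean KR value per distance, over all bin pairs, divided by the factors of both bins. Observed/expected was a ratio of sums with exact Poisson intervals, and ratios of classes had exact conditional binomial intervals. No p-values were computed, since 1 pooled map has no replicates. Where a bin pair has 0 read pairs, the upper bound of its interval is still above 0. For the start bins of Mki67ip and Marco, with 0 read pairs where 5.19 were expected, it was 0.710. Gene overlap used protein-coding genes of GENCODE M1 on NCBIM37, the assembly of mm9.

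Members, gene lists and settings were chosen with earlier results of these data known. Windows, flanks, gene bodies and start-to-start pairs were added after the data were seen. Named bin pairs were the 2 with the highest lower bound in each cluster pair, at least 3 bins apart at one end or more and with an expected count of at least 2. Start bins were named where they were the highest or lowest of their cluster with another cluster. Alternatives changed the expected count, bin size (5 and 25 kb), distance minimum, bins, gene class and call rule. The code was checked on simulated counts. Python 3.11.15, numpy 2.4.6, pandas 2.3.3 and scipy 1.17.1 were used. The 50 kb tables were not used here.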

Additional observations from a re-analysis of the deposited data

How the results depend on the processing

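No paired analysis was possible because both samples were merged before deposit, and for this reason no value without either sample could be had. Changes are judged against counting error alone, and causes were not tested unless the construction names one. Cluster pairs are given in the order Tsn-Clasp1 with Ralb-Dbi, with Steap3-Marco and with Insig2-Ddx18, Ralb-Dbi with Steap3-Marco and with Insig2-Ddx18, and Steap3-Marco with Insig2-Ddx18. Their main values were 1.48, 1.34, 1.88, 0.824, 1.39 and 1.92. Under the alternatives, 27 of 64 values stayed in their counting interval, 36 left it and 1 changed sides of 1.

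Without low bins in the expected count the 6 were 1.39, 1.28, 1.99, 0.763, 1.32 and 1.79. From distance alone they were 1.46, 1.53, 2.82, 1.12, 1.54 and 2.18, so the pair of neighbouring clusters turned above 1. Without the members in the expected count, which by construction lowers it, they were 1.68, 1.45, 2.13, 0.911, 1.56 and 2.18. With 5 kb bins the 5 enriched pairs were 1.40, 1.26, 1.66, 1.31 and 1.84, and with 25 kb bins Tsn-Clasp1 gave 1.52 with Ralb-Dbi, 1.38 with Steap3-Marco and 2.00 with Insig2-Ddx18, and Ralb-Dbi gave 1.43 with Insig2-Ddx18. At 1.5 Mb or more Ralb-Dbi gave 1.64 with Tsn-Clasp1 and 1.25 with Insig2-Ddx18, and the 2 pairs that involve Steap3-Marco and a cluster under 1.5 Mb away gave no value. The ratio of gene classes gave none for Ralb-Dbi with Steap3-Marco with 25 kb bins, nor for the Tsn-Clasp1 pairs with bins at or above the median total alone. Weighted by KR Tsn-Clasp1 gave 1.5 with Ralb-Dbi, and Insig2-Ddx18 gave 1.93, 1.42 and 1.95 with the other clusters in order of position. With bins at or above the median total alone, added after the data were seen, Tsn-Clasp1 gave 1.27 with Steap3-Marco and 1.66 with Insig2-Ddx18, which gave 1.36 with Ralb-Dbi and 1.89 with Steap3-Marco.

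The ratio of members to pairs with 1 end in a cluster, 1.53, was 1.5 without low bins in the expected count, 1.45 from distance alone, 1.55 and 1.52 with 5 and 25 kb bins, 1.51 at 1.5 Mb or more, 1.58 weighted by KR and 1.5 with bins at or above the median total. For single cluster pairs against pairs with 1 end in either cluster at the same distances, 44 of 58 ratios stayed in their counting interval and 14 left it. The ratio of gene-overlapping to gene-free members, 1.01, was 0.975 with 25 kb bins and 1.18 when bins with a transcription start took the place of gene overlap. By cluster pair, ratios whose interval lay on 1 side of 1 changed sides for Ralb-Dbi with Insig2-Ddx18 from distance alone, at 0.902, and for Steap3-Marco with Insig2-Ddx18 with 25 kb bins, at 0.974, and without the bins with most read pairs, at 0.991. Ratios whose interval included 1 also changed sides: from distance alone the Tsn-Clasp1 pairs went from 0.913, 0.996 and 0.969 to 1.15, 1.36 and 1.17, and with start bins to 1.27, 1.13 and 1.41, while Ralb-Dbi with Steap3-Marco went from 1.14 to 0.922 with start bins. The count of 540 high members (8.07% of those examined) was 1077 from distance alone, 848 without the members in the expected count, 233 of 1094 with 25 kb bins, a share of 21.3%, 192 of 3861 at 1.5 Mb or more, a share of 4.97%, 1182 and 160 with thresholds of 1.2 and 2, and 324 with the local ring. The 5 low members became 49 from distance alone, 3 without the members in the expected count, 0 with 25 kb bins, 2 at 1.5 Mb or more, and 20 and 0 with thresholds of 1.2 and 2. At most 74 read pairs per member limit single bin pairs, while sums over clusters rest on 861 to 26815.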
